A study of Drosophila melanogaster with 9 samples.

Results

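The genes described here encode the conserved polarity proteins of epithelial cells: scrib, dlg1 and l(2)gl of the Scribble group, crb and sdt of the Crumbs complex, baz, par-6 and aPKC of the Par group, and yrt, which limits Crumbs on the lateral side. They were taken by symbol, as every probe set of the deposited array table annotated with 1 of these 9 genes alone. This gave 17 probe sets of 14010, or 9 of 10844 measured genes. sdt had 7 probe sets, scrib and dlg1 had 2 each, and the other 6 genes had 1 each.

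Total RNA of whole dechorionated Drosophila melanogaster embryos was hybridised to 9 Affymetrix arrays, 3 independent RNA samples in each of 3 groups. The embryos had been kept at 25 °C for about 9 h and were at stages 13 to 14, when the epidermis closes over the dorsal side, in at least 85% of each collection. WT embryos carried the eye colour mutation w. GOF embryos were w; UAS-hepACT/+; 69B/+, so the driver 69B-GAL4 expressed an activated form of Hemipterous, the kinase upstream of the Jun N-terminal kinase (JNK), in the ectoderm. LOF embryos were y w heprev75/y w hep1, a combination of 2 mutant alleles of hep, and all 3 groups therefore share w. The labels do not say how embryos of the LOF genotype were picked from a cross. The study asked which genes follow JNK activity during dorsal closure.

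Epithelial polarity rests on mutual exclusion between surface domains. The transmembrane protein Crumbs, its scaffold Stardust (sdt) and the Par complex mark the apical side, where the kinase aPKC, held by Par-6, phosphorylates lateral proteins and keeps them out. Scribble, Discs large (dlg1), Lethal giant larvae (l(2)gl) and Yurt occupy the lateral side and hold the apical proteins back, while Bazooka (baz) positions the adherens junction between them. Most of these proteins are also supplied by the mother, and the Par proteins serve a further role in dividing neuroblasts.

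Values are the deposited linear intensities, with means ± SD over n = 3 arrays. A change is the group mean of log2(value + 1) minus that of WT, given with its standard error (SE), from limma fitted to all genes. A gene rose or fell where its Benjamini-Hochberg adjusted p was below 0.05. The base with which the authors returned their RMA values to a linear scale is not stated. If it was e, as the top of the range makes likely, log2 changes shrink by the factor 0.693, and folds are therefore given under both bases. Quantile-normalised intensities are relative to the rest of the RNA on an array, and in whole embryos fewer cells of a type and less RNA per cell cannot be told apart.

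Array medians lay between 688 and 709. Across genes, the correlation of 2 arrays was at least 0.992 within a group, 0.989 to 0.994 between WT and LOF and 0.962 to 0.97 between WT and GOF. The manipulated gene hep had intensities of 3496 ± 586 (WT), 3376 ± 264 (GOF) and 3494 ± 170 (LOF). The place of its probes relative to the transgene and the lesions is unknown here, so it checks nothing. puc, a phosphatase gene induced by JNK, stood at 2304 ± 270 in WT and was higher in GOF, at 6142 ± 761 (adjusted p = 2.5e-06), while its LOF level of 1752 ± 55.7 did not pass the test (adjusted p = 0.0832).

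The comparison of GOF with WT asked which of the polarity genes changed when JNK was activated in the ectoderm. Read from the brightest probe set of each gene, 5 of 9 rose and 0 fell, against 16.6% of all 10844 genes that rose and 20.1% that fell. The 5 were aPKC, scrib, yrt, par-6 and l(2)gl, and their GOF arrays all lay above their WT arrays, as did those of 19.6% of all genes. The median log2 change of the 9 genes was 0.54, beside -0.03 over all genes. The apical genes crb, sdt and baz and the lateral scaffold gene dlg1 did not pass the test in these sets. Over all 17 probe sets the picture was less one-sided, with 5 up, 2 down and 10 not called, where 33.3% of all probe sets changed.

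**Figure D1:**
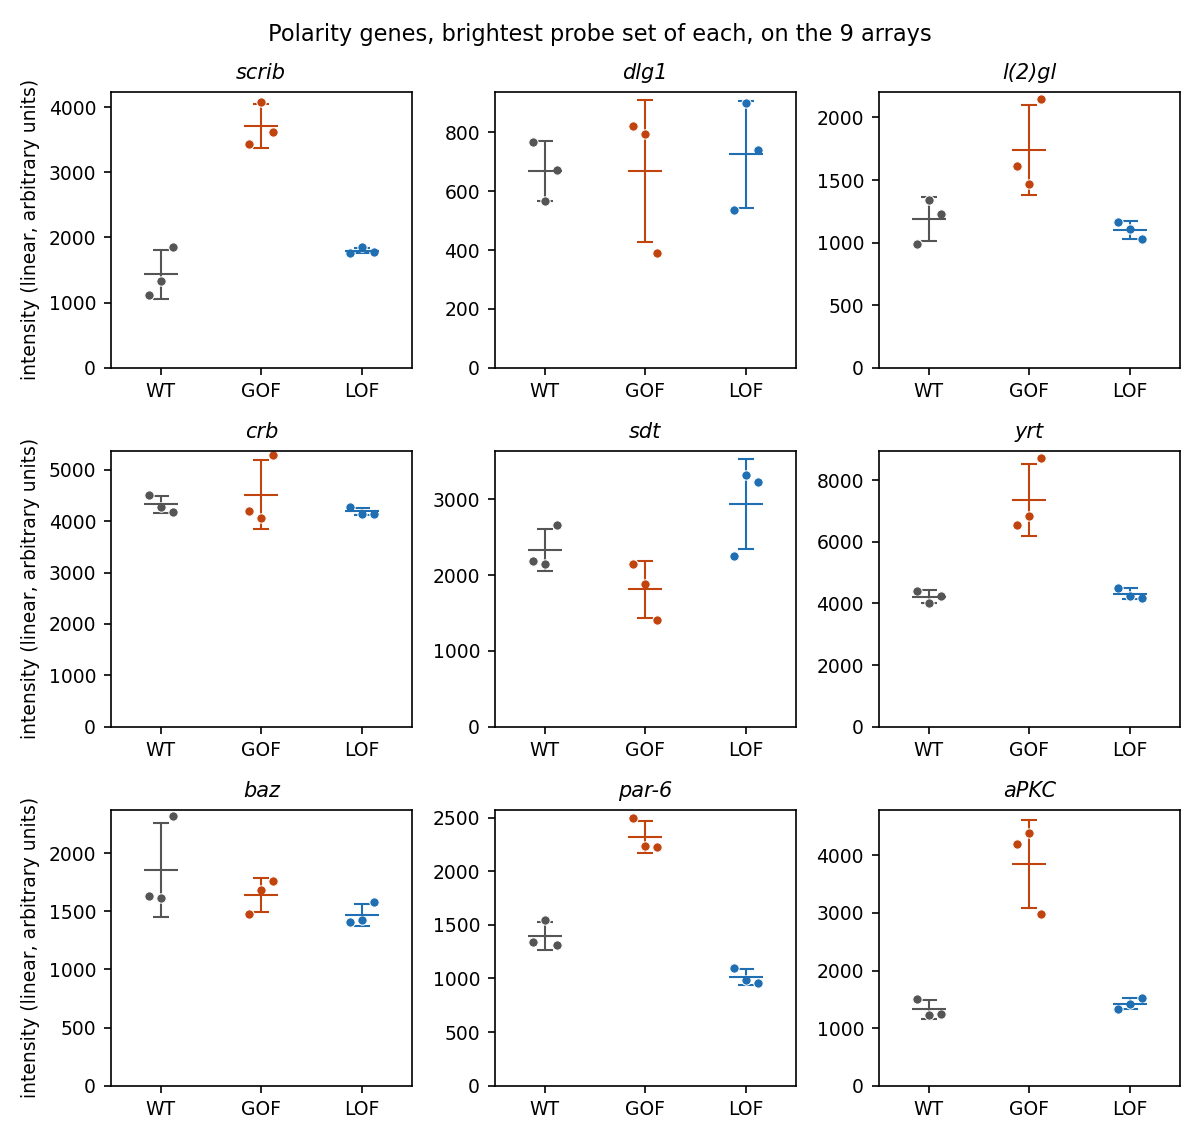
Linear intensity (arbitrary units, from 0) of the brightest probe set of each polarity gene on the 3 WT, 3 GOF and 3 LOF arrays. Points are arrays, horizontal dashes are means and bars are SD over n = 3. The GOF arrays of scrib, l(2)gl, yrt, par-6 and aPKC sit above all WT arrays, and the LOF arrays of par-6 below them.

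In the Par group aPKC and par-6 rose and baz did not pass the test. aPKC, the kinase of the complex, read 1513, 1222 and 1246 on the WT arrays, 4190, 4390 and 2979 on the GOF arrays and 1330, 1413 and 1528 on the LOF arrays. GOF stood apart from both other groups, which overlapped. The rise from 1327 ± 162 to 3853 ± 764 was the largest among the 9 genes in this comparison (log2 change 1.52, SE 0.15, adjusted p = 8.4e-06). It came to 2.87-fold, or 2.08-fold with base e. It ranked 337 among 10844 genes by absolute size.

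par-6, the adaptor that holds aPKC, read 1337, 1541 and 1310 in WT, 2493, 2239 and 2230 in GOF and, in LOF, 1100, 989 and 956. It was the only 1 of the 9 whose 3 groups did not overlap at all, in the order LOF, WT, GOF. The rise in GOF from 1396 ± 126 to 2321 ± 149 corresponds to a log2 change of 0.73 with an SE of 0.10 (adjusted p = 0.000118), 1.66-fold or 1.42-fold with base e.

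baz, the Par-3 homologue that recruits the other members, read 1632, 1612 and 2324 in WT and 1473, 1686 and 1762 in GOF. The groups overlapped, WT replicate 3 being far above the rest. The log2 change was -0.16 (SE 0.14, 95% interval -0.46 to 0.14, adjusted p = 0.434), so a moderate fall cannot be told from no change at this precision.

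scrib, the lateral scaffold gene with leucine-rich repeats and PDZ domains, gave opposite answers from its 2 probe sets. The brighter set (155042_at) read 1110, 1338 and 1846 in WT, 3429, 4083 and 3615 in GOF and, in LOF, 1763, 1849 and 1784. It rose in GOF, with a log2 change of 1.40 (SE 0.15, adjusted p = 2.57e-05), 2.64-fold or 1.96-fold with base e. The dimmer set (152085_at) read 1994, 1890 and 2246 in WT, 1387, 1180 and 1574 in GOF and, in LOF, 2095, 2205 and 2118. It fell in GOF, with a log2 change of -0.57 (SE 0.11, adjusted p = 0.0024 over all probe sets).

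In both sets no GOF array overlapped a WT or LOF array, but on opposite sides. The log2 ratio of the brighter to the dimmer set lay between -0.84 and -0.28 on the WT arrays, close to -0.25 on all 3 LOF arrays and between 1.20 and 1.79 on the GOF arrays. The log2 ratio was 1.97 higher in GOF than in WT and 0.29 higher in LOF than in WT. An exact permutation test gave p = 0.1 for both, the smallest that 3 against 3 arrays can give, so it tells nothing of either. With the mean of both sets the log2 change of scrib was 0.41 (adjusted p = 0.0123). Which exons or transcripts each set matches is unknown here, so a rise of scrib as a gene is not shown by these arrays.

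**Figure D2:**
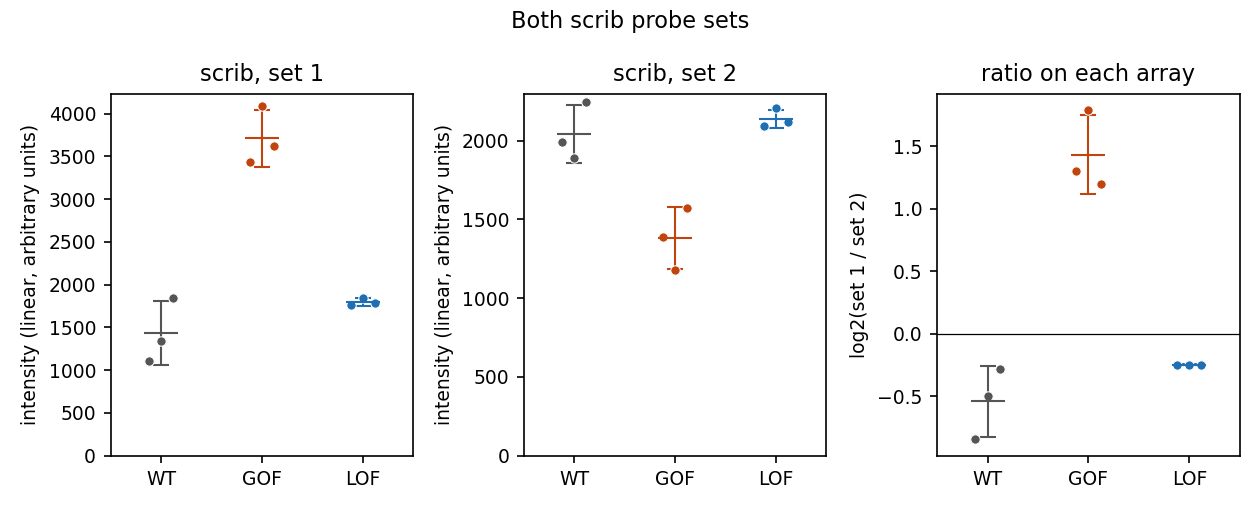
Linear intensity (arbitrary units) of both scrib probe sets and the log2 ratio of set 1 (155042_at) to set 2 (152085_at) on each array, by group. Points are arrays, dashes are means and bars are SD over n = 3. Set 1 is highest and set 2 lowest on the 3 GOF arrays, and the ratio there is 1.20 to 1.79, against values below 0 on all WT and LOF arrays.

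Of the other lateral genes, yrt rose clearly and l(2)gl less so. yrt, a FERM-domain gene whose product binds Crumbs and restrains it, read 4414, 4010 and 4247 in WT, 6541, 6829 and 8713 in GOF and, in LOF, 4509, 4254 and 4185. WT and LOF arrays were interleaved and the GOF arrays stood above them. The rise from 4224 ± 203 to 7361 ± 1180 was a log2 change of 0.79 (SE 0.11, adjusted p = 0.000163), 1.73-fold or 1.46-fold with base e.

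l(2)gl, the antagonist and substrate of aPKC, read 992, 1338 and 1230 in WT, 1610, 1467 and 2146 in GOF and, in LOF, 1166, 1112 and 1027. GOF lay above both other groups, by a narrow gap over WT replicate 2. The log2 change was 0.54 (SE 0.15, adjusted p = 0.0123), 1.46-fold or 1.30-fold with base e. The call ended without WT replicate 1, the lowest WT array (log2 change 0.42, adjusted p = 0.0585).

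dlg1, the scaffold gene of the MAGUK family that works with scrib, varied too much within groups to settle. Its brighter set read 768, 566 and 674 in WT, 822, 796 and 390 in GOF and 535, 899 and 742 in LOF, and all groups overlapped. The log2 change in GOF was -0.07 (SE 0.27, 95% interval -0.65 to 0.52, adjusted p = 0.895). Its dimmer set, among the dimmest 20.0% of probe sets, read 154, 138 and 153 in WT and 203, 188 and 147 in GOF (log2 change 0.26, adjusted p = 0.124 over all probe sets).

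crb, the apical determinant itself, did not pass the test. It read 4517, 4278 and 4184 in WT, 4194, 4060 and 5292 in GOF and, in LOF, 4275, 4143 and 4145. GOF replicate 3 was the highest array, and the other 8 lay between 4060 and 4517. The log2 change in GOF was 0.05 (SE 0.11, adjusted p = 0.774). Its 95% interval, -0.18 to 0.28, ended below those of aPKC (1.20 to 1.84) and par-6 (0.52 to 0.95).

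sdt is the MAGUK scaffold gene whose product binds the Crumbs tail. Of its 7 probe sets, 6 were lower in GOF than in WT, but only the set 144693_at passed the test. That set read 1514, 1322 and 2320 in WT, 1095, 1002 and 1303 in GOF and, in LOF, 1996, 2523 and 2280 (GOF against WT log2 change -0.57, SE 0.19, adjusted p = 0.0388 over all probe sets). Its GOF arrays lay just below the lowest WT array.

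The brightest sdt set (144691_at) read 2193, 2153 and 2658 in WT, 2153, 1886 and 1409 in GOF and, in LOF, 2254, 3326 and 3237. GOF met WT at its highest array, and the log2 change of -0.38 (SE 0.18, adjusted p = 0.13) did not pass. The set 144692_at was the exception in direction, at 1181, 1404 and 1056 in WT and 1468, 1360 and 1187 in GOF (log2 change 0.15, adjusted p = 0.465 over all probe sets). The other 4 sets differed by -0.04 to -0.16 on the log2 scale, 3 of them among the dimmest 40% of probe sets, where little change can be seen. The 7 sets share a gene and arrays, so they are not independent readings.

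**Figure D3:**
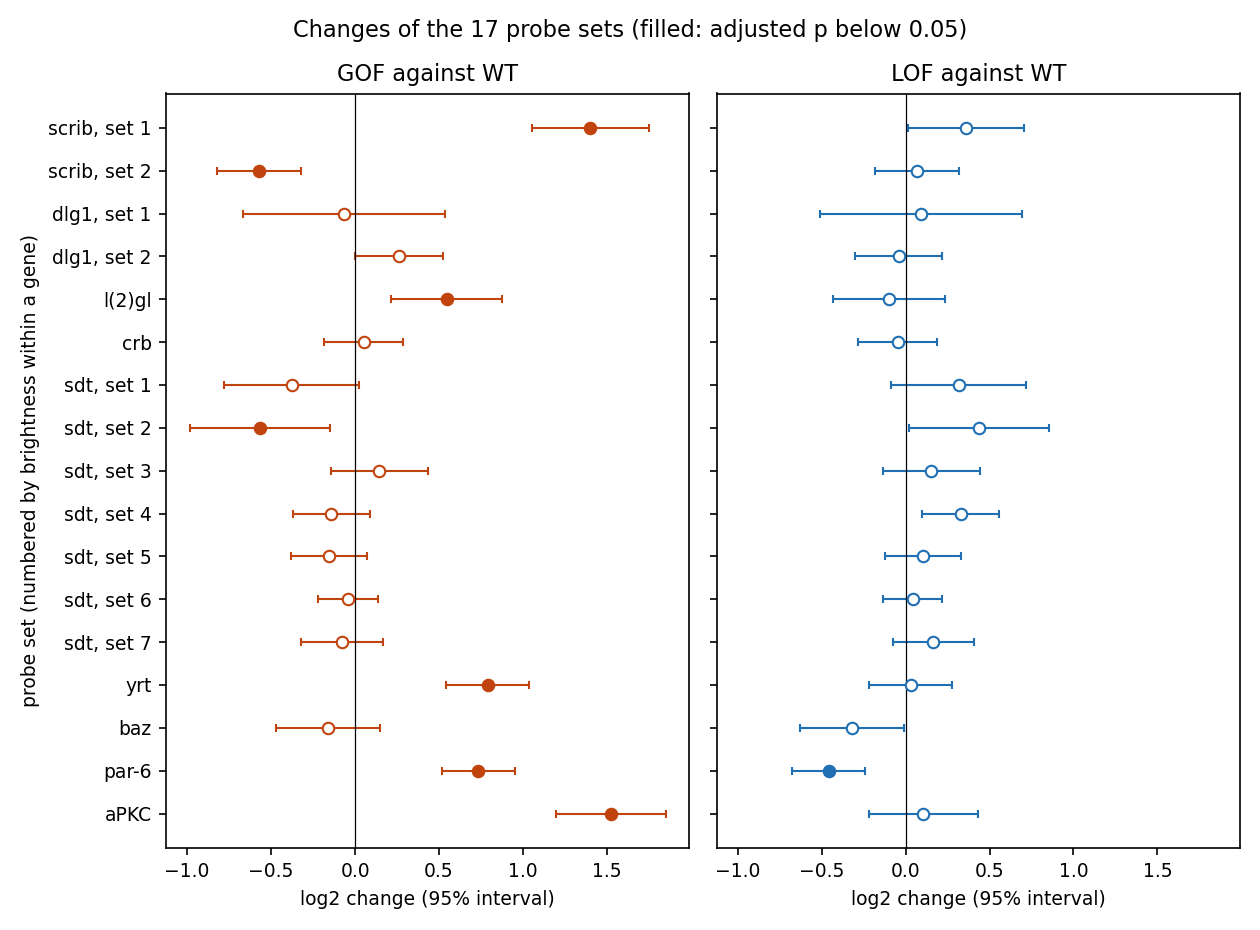
Log2 change with its 95% interval for each of the 17 probe sets, GOF against WT on the left and LOF against WT on the right, from limma over all probe sets. Filled points have an adjusted p below 0.05, and sets of 1 gene are numbered by brightness. The 2 scrib sets lie on opposite sides of 0 in GOF, 6 of 7 sdt sets lie below 0 in GOF and all 7 above 0 in LOF, and par-6 is the only filled point in LOF.

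The comparison of LOF with WT asked the same with hep function reduced. Here 1 of the 9 genes fell and 0 rose, where 3.37% of all genes fell and 1.36% rose. The median log2 change of the 9 was 0.03, beside 0.02 over all genes. Over the 17 probe sets 1 passed the test, against 3.61% of all probe sets.

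The gene that fell was par-6, whose 3 LOF arrays (956 to 1100) lay below the 3 WT arrays (1310 to 1541). This was a log2 change of -0.46 (SE 0.10, adjusted p = 0.0254), or 1.37-fold with base 2 and 1.25-fold with base e. This call was not secure, since leaving out WT replicate 1 (adjusted p = 0.0653), WT replicate 2 (0.0701), LOF replicate 2 (0.103) or LOF replicate 3 (0.0905) ended it. baz also had all LOF arrays (1409, 1421 and 1578) below the WT arrays, by a small gap, as 12.5% of all genes did. Its log2 change of -0.32 (SE 0.14, adjusted p = 0.231) did not pass.

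The remaining genes showed no change that could be told from the spread. The brighter scrib set stood at a log2 change of 0.36 (SE 0.15, adjusted p = 0.221). Leaving out 1 array at a time, it passed without WT replicate 3, the highest WT array (log2 change 0.56, adjusted p = 0.0292). The dimmer scrib set stood at 0.07 (adjusted p = 0.787 over all probe sets). aPKC (0.11, 95% interval -0.21 to 0.42), yrt (0.03, -0.21 to 0.28), crb (-0.05, -0.28 to 0.19) and l(2)gl (-0.10, -0.42 to 0.23) had intervals that include 0. All 7 sdt sets were higher in LOF than in WT, by 0.04 to 0.44 on the log2 scale, and 0 of the 7 passed (adjusted p from 0.116 to 0.822 over all probe sets, 2 with an unadjusted p under 0.05, at 0.00915 and 0.0419).

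GOF and LOF were also compared directly, which uses the same GOF and LOF arrays again. Of the 9 genes 5 were higher in GOF and 1 was lower, where 17.7% of all genes were higher and 19.4% lower. par-6 differed by 1.19 on the log2 scale (SE 0.10, adjusted p = 2.76e-06), 2.29-fold or 1.77-fold with base e, and aPKC by 1.42 (SE 0.15, adjusted p = 1.35e-05). yrt (0.76), l(2)gl (0.64) and the brighter scrib set (1.04) were also higher in GOF, the last with a dimmer set at -0.64 (adjusted p = 0.00109 over all probe sets).

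sdt was the gene that was lower in GOF than in LOF. The brightest set differed by -0.69 (SE 0.18, adjusted p = 0.00885) and 144693_at by -1.001 (SE 0.19, adjusted p = 0.00161 over all probe sets). All 7 sets were lower in GOF. Of the 7, 3 passed the test, against 19% of all probe sets that were called lower, and 6 had all GOF arrays below all LOF arrays, against 29.6% of all probe sets. crb (0.10), baz (0.16) and dlg1 (-0.16) did not pass (adjusted p = 0.519, 0.427 and 0.69).

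The proteins that work with the 9 were followed through a list of 31 partner genes, of which 18 were measured. In GOF 3 of the 18 rose and 6 fell, beside 16.6% and 20.1% of all genes, so the share that rose was near that of all genes. They had a median log2 change of -0.30 beside -0.03 over all genes. The falls lay on the Crumbs side and the lateral side, with 2 of 4 and 3 of 4 measured genes. On the Par side 1 of 2 rose, on the adherens junction side 1 of 5 rose, and of 3 other regulators 1 rose and 1 fell. Of the 3 that rose, the call of cno held under 20 of 20 settings, whereas those of par-1 and Vps35 ended in 6 and 11 of 20. Of the 6 that fell, the call of tws, a phosphatase subunit gene, ended in 4 of 19 settings (adjusted p up to 0.107), and those of the other 5 held under 20 of 20. The number that rose was 1 without WT replicate 1, WT replicate 2, GOF replicate 2 or GOF replicate 3, and 5 without GOF replicate 1.

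Among partners of Crumbs, kst, the heavy spectrin chain that Crumbs recruits, read 3930, 3949 and 4012 in WT and fell to 1820, 1859 and 1997 on the GOF arrays (log2 change -1.07, SE 0.08, adjusted p = 1.95e-06). Patj, the PDZ scaffold that binds Stardust, read 1346, 1102 and 1066 in WT and 817, 647 and 852 on the GOF arrays (log2 change -0.60, SE 0.13, adjusted p = 0.00332). veli, the Lin-7 homologue of the complex, read 5439, 5601 and 4931 in WT and 4816, 4718 and 4143 in GOF, below WT on every array but short of the test (log2 change -0.22, SE 0.11, adjusted p = 0.14).

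On the lateral side, cora, a FERM-domain gene of the septate junction that acts with yrt, read 20018, 18980 and 20018 in WT and 9245, 7908 and 9993 on the GOF arrays (log2 change -1.13, SE 0.12, adjusted p = 1.92e-05). It moved opposite to yrt. Nrx-IV, the Neurexin that Coracle binds, fell from 5730 ± 168 to 3116 ± 392 (log2 change -0.89), and gukh, whose product links Discs large to Scribble, fell from 3378 ± 335 to 1821 ± 219 (log2 change -0.89). The size for gukh depended on the setting, at -0.90 to -0.46 over 12 other settings, single arrays left out apart (adjusted p up to 0.0308). Over the same settings its LOF change went from -0.16 to 0.18 and never passed. These settings include the base e scale, which shrinks every change, and the mean of a gene's probe sets. The values above for partners come from the brightest probe set of each alone. cno, the Afadin homologue at adherens junctions, rose from 3358, 3281 and 3701 to 6111, 11282 and 11716 (log2 change 1.44, SE 0.20, adjusted p = 0.000143). Cdc42, the GTPase that activates Par-6, was not analysed here.

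In LOF 0 of the 18 partners rose and 1 fell, near the 1.36% and 3.37% of all genes. The 1 was 14-3-3zeta, whose product binds phosphorylated Bazooka. It read 86805, 105172 and 96182 in WT and 72964, 67814 and 62568 in LOF (log2 change -0.50, SE 0.11, adjusted p = 0.0278). The call ended without any 1 of the 3 WT or the 3 LOF arrays (adjusted p = 0.051 to 0.101).

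**Figure D4:**
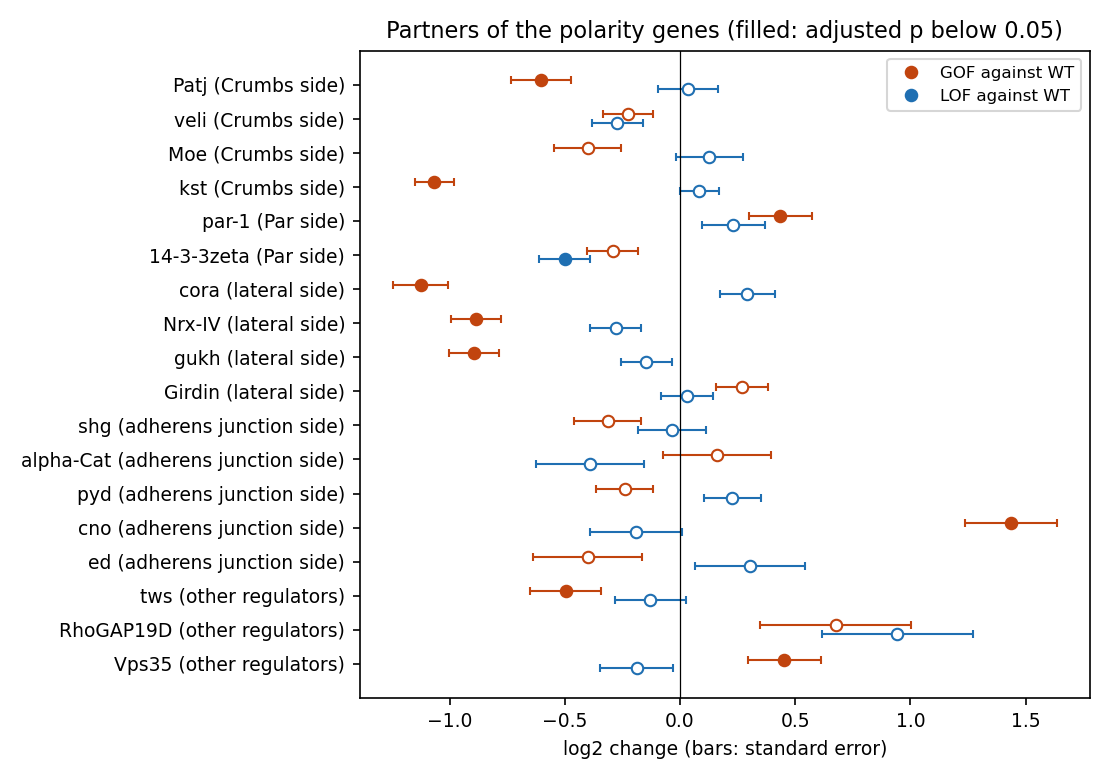
Log2 change of the 18 measured partner genes in GOF (orange) and LOF (blue) against WT, with bars for the standard error. Filled points have an adjusted p below 0.05. In GOF, kst, cora, gukh, Nrx-IV and Patj lie left of 0 and cno far to the right, and in LOF only 14-3-3zeta is filled.

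Markers of tissue and age moved with the same contrast. Over all genes 16.6% rose and 20.1% fell in GOF, and 1.36% rose and 3.37% fell in LOF. Of 11 measured genes whose RNA the mother lays down in the egg, 9 rose in GOF and 0 fell, and their summed intensity was 3929 to 4071 in WT, 28747 to 47235 in GOF and 5731 to 6228 in LOF, where 5 of 11 rose. Of 5 blastoderm genes 2 rose in GOF and 1 in LOF (summed intensity 5009 to 5764 in WT, 22446 to 26491 in GOF and 6334 to 6914 in LOF). dah and slam were the 2, with means of 14820 and 6062 in GOF that make up most of the sum, and dah was the 1 in LOF. nullo, Sry-alpha and bnk did not pass the test in either. The lowest value of any probe set was 29, so no gene could read 0, and bnk read only 39 to 49. The part of these maternal and early RNAs in the rises of aPKC, par-6, yrt, l(2)gl and the brighter scrib set was not tested.

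Within GOF the arrays did not keep 1 order. The egg marker sum was 28747, 45814 and 47235 on replicates 1, 2 and 3. Of the genes that rose, only yrt increased in that order, at 6541, 6829 and 8713. aPKC did not, at 4190, 4390 and 2979. Nor did the brighter scrib set (3429, 4083 and 3615) or l(2)gl (1610, 1467 and 2146). par-6 ran the other way, at 2493, 2239 and 2230. Whether these orders are related was not tested. Replicate 3 held the highest or the lowest GOF value for 8 of the 9 genes, the highest for yrt, l(2)gl, crb and baz and the lowest for aPKC, dlg1, sdt and par-6. Within LOF, replicate 1 was the highest or the lowest array for all 9. The counts were 6 and 4 for GOF replicates 1 and 2, and 4 and 5 for LOF replicates 2 and 3. Every gene has a highest and a lowest array among the 3 of a group, so such counts are high by construction and carry no test.

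Epidermal markers, which check the tissue that the driver and the polarity genes share, were present in all groups and lower in GOF. Of 11 measured, 10 fell in GOF and 0 rose, beside 20.1% and 16.6% of all genes. In LOF 2 fell, beside 3.37% of all genes. The sums were 40430 to 44445 in WT, 22209 to 24027 in GOF and 41050 to 42604 in LOF. The same shares of all genes apply to the lists that follow. Amnioserosa genes fell in 7 of 9 cases in GOF (54844 to 65486 in WT, 31993 to 33388 in GOF, 40206 to 46384 in LOF). In LOF 1 of the 9 fell and 0 rose. The 1 was Ance, a peptidase gene that makes up most of the sum (39340 in WT and 21580 in LOF). peb, of the same list, went the other way without passing (log2 change 1.08, adjusted p = 0.0949). It read 1553, 1483 and 3430 in WT and 4185, 4405 and 4088 in LOF. Other tissues' lists were lower in GOF too. Of 4 neuron genes 3 fell (sums of 20970 to 24853 in WT, 9859 to 11881 in GOF and 21798 to 23875 in LOF). Of 6 hemocyte genes 4 fell in GOF (64878 to 76485 in WT, 36831 to 41942 in GOF), while in LOF 2 rose (106063 to 117923), where 1.36% of all genes did. The 2 were Pxn and Ppn, and Ppn makes up most of the sum (means of 67590 in WT, 36960 in GOF and 100800 in LOF). In LOF srp did not pass the test (log2 change 0.07), and crq was lower (188 in WT, 142.3 in LOF) without passing (adjusted p = 0.0968). The part of these differences in tissue markers in the falls of kst, cora, Nrx-IV, gukh and Patj was not tested.

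**Figure D5:**
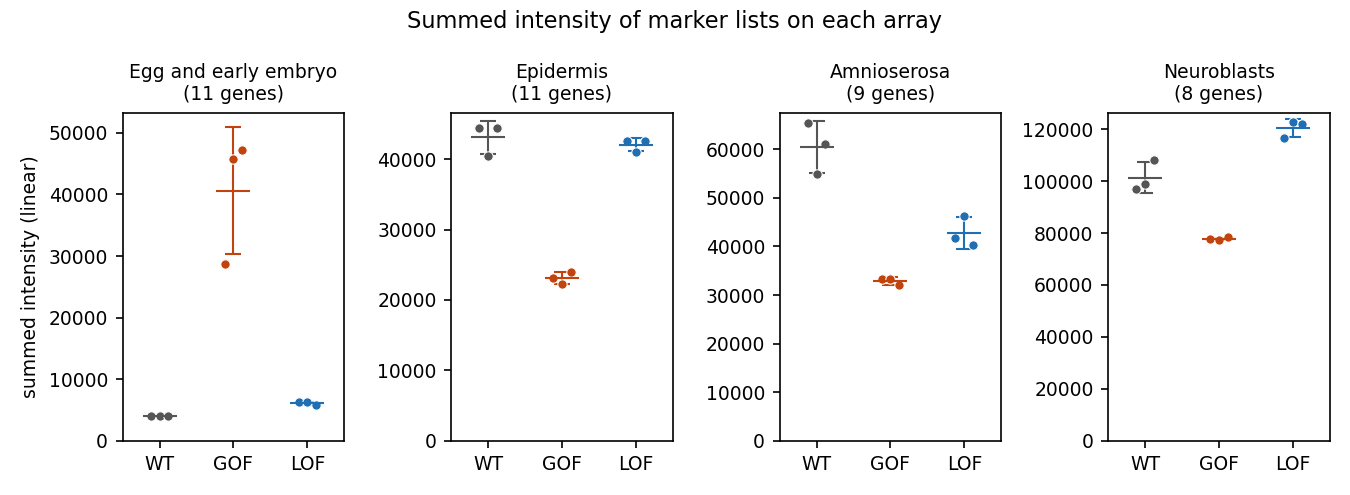
Summed linear intensity of 4 marker lists on each array, by group, with points for arrays, dashes for means and bars for SD over n = 3. The egg list reads 3929 to 4071 in WT and 28747 to 47235 in GOF, while the epidermis, amnioserosa and neuroblast sums are lower on the GOF arrays than on any WT array.

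For the 5 genes that rose in GOF, the genes outside the 9 with the most similar profile were found by Pearson correlation of log2 values over the 9 arrays, which mostly reflects the distance between GOF and the other groups. Nup62, which encodes a nuclear pore protein, was most like yrt (0.997), followed by Coq8 (0.996). CG4911 (0.996) and the proteasome subunit gene Prosalpha4 (0.995) were most like aPKC. Ist1 (0.991) and Ntf-2, a nuclear transport factor gene (0.99), were most like par-6. CG32512 (0.985) was most like the brighter scrib set and CG14464 (0.966) most like l(2)gl. These values describe the arrays and carry no test.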

How the data were processed

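Per the submitters' processing notes, the deposited intensity values were made by the authors with RMA, and per the values they are whole numbers on a linear scale from 29 to 1331513. Since 239 probe sets exceed 65535, the 16-bit limit of a scanner, a return from log2 with base e is likelier than base 2, and neither base nor version is stated. RMA includes quantile normalisation, so values are relative within an array. The base moves the size of a change, not its direction.

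Probe sets were named with the platform annotation (12443 with 1 gene, 327 with several, 1196 unnamed here, 44 controls), with symbols updated to RefSeq through the gene number. The set with the highest mean stood for each of 10844 genes. log2(value + 1) was fitted with limma 3.58.1 in R 4.3.3 (lmFit and eBayes, 1 mean per group, all 9 arrays, 6 residual and 5.39 prior degrees of freedom, two-sided, no filter). Further sets of a gene come from the same fit over 13966 probe sets, adjusted over them. The median SE was 0.11, with precision limited by 3 arrays per group. The fit was also run on simulated data, with far fewer genes changed than were called here in GOF. That run does not check the calls given here. Of the 17 member probe sets, 13 would pass a filter on the dimmest 40%, as would the brightest set of all 9 genes.

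The members, partner and marker lists and naming rules were chosen with earlier results of these data known. Named partners are the up to 6 called with the largest change per comparison with WT, plus Patj and veli. Same-numbered arrays showed no sign of deviating together (correlations -0.18 to 0.187, beside -0.277 to 0.233 for other numbers). The main fit left arrays unpaired. With so few arrays per group, a weak pairing could go unseen. No sequences were printed.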

Additional observations from a re-analysis of the deposited data

How the results depend on the processing

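Of the 9 polarity genes' calls in GOF against WT, those of aPKC, scrib, yrt and par-6 held under 20 of 20 planned settings (adjusted p up to 0.000149, 0.0123, 0.00125 and 0.000919) and that of l(2)gl under 19 of 20, while par-6 in LOF held under 16 of 20. The settings were a pseudocount of 32, the 40% dimmest genes left out, 3 renormalisations, 2 other treatments of probe sets, 2 groups per fit, a variance trend, the replicate block, the base e scale and each array left out. The base e scale shrinks all changes nearly alike. Leaving out a LOF array keeps the GOF against WT change itself as it was. The 20 are therefore not independent checks. Among the polarity genes, the alternative that reversed a result was chosen after seeing the data: with the second brightest probe set of scrib, dlg1 and sdt, scrib stood at -0.57 in GOF against WT and -0.64 in GOF against LOF, so that 4 polarity genes rose and 2 fell in GOF against WT, and 2 were lower in GOF than in LOF. scrib in GOF against LOF did not pass with the mean of its sets (0.20, adjusted p = 0.199). With single arrays left out, LOF against WT gave 138 to 716 changed genes (512 with all), 0 to 1 polarity genes down, 0 to 1 up and 0 to 3 of the members' probe sets, GOF against WT gave 1 to 5 partners up, and GOF against LOF 2 to 5 partners up. In LOF against WT 0 to 1 partners were down and 0 to 1 up. Partners up in GOF against WT numbered 1 with 2 groups per fit. In LOF, 0 partners were down under cyclic loess, and 1 was up with 2 groups per fit and 1 with the replicate block. Under cyclic loess 4 partners were higher in GOF than in LOF. par-1, 1 of the 3 partners that rose in GOF, turned to -0.0595 (adjusted p = 0.725) with the mean of its probe sets. No sign of pairing by replicate number was seen. With the numbers as a block, 3993 genes changed in GOF and 540 in LOF. As without the block, 5 polarity genes rose in GOF and 1 fell in LOF. The causes were not tested. The spread of 3 arrays limits what can be said of dlg1, baz and the dimmest sdt sets.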

Other observations

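The neuroblast list, whose genes include partners of the Par complex in asymmetric division, had 5 of 8 genes down and 1 up in GOF, beside 20.1% and 16.6% of all genes (median log2 change -0.61 beside -0.03 over all genes). pros, the transcription factor gene whose product is segregated to the daughter cell, fell from 12287, 15912 and 14716 in WT to 5447, 5925 and 4000 on the GOF arrays (log2 change -1.49, SE 0.15, adjusted p = 1.04e-05), and mira, the gene of its carrier and a target of aPKC, fell by 0.70 (SE 0.11, adjusted p = 0.000446). insc, which links Bazooka to the spindle machinery, had WT values of 782, 674 and 871 and GOF values of 598, 460 and 448, a log2 change of -0.63 (adjusted p = 0.00206). Its partner pins instead rose, from 10500, 8961 and 11210 to 14986, 19458 and 11721 (log2 change 0.57, SE 0.16, adjusted p = 0.0137), a call that ended in 2 of 20 settings (adjusted p up to 0.0573). Of the 5 falls, that of dpn, a transcription factor gene of neuroblasts (log2 change -0.58, adjusted p = 0.0454), ended in 12 of 20 settings (adjusted p up to 0.162). In LOF 0 of the 8 passed the test, and their median log2 change was 0.004. brat came nearest (log2 change 0.90, adjusted p = 0.0781), at 16422, 15779 and 30283 in WT and 33181, 39093 and 39664 in LOF. It passed in 5 of 20 settings (adjusted p down to 0.0143). The summed intensity of the list was 97046 to 108046 in WT, 77486 to 78308 in GOF and 116503 to 122930 in LOF.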
